A study of Homo sapiens with 5 samples.

Results

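The 10 genes described here encode parts of the autophagy machinery: the kinases ULK1 and ULK2, the lipid kinase subunit BECN1, the ubiquitin-like proteins MAP1LC3B, GABARAPL1 and GABARAPL2, the conjugation factors ATG5, ATG7 and ATG12, and the cargo receptor SQSTM1. They were chosen by name, with earlier results of these data known. A deposited chromatin immunoprecipitation (ChIP-seq) peak was assigned to a gene when its nearest base lay within 5 kb of the gene's start in the hg19 genome build. Of 194759 peaks in 3 lists, 40 met this rule, of which 8 belonged to FOXK1, 18 to ASXL1 and 14 to O-GlcNAc. The cells were the Flp-In HEK293 T-REx line, derived from human embryonic kidney and fitted with a recombination site for transgenes and a tetracycline repressor, and no transgene, induction or other treatment is named in the labels. In ChIP-seq an antibody pulls down a protein or modification with its DNA, and a peak is a stretch with more sequenced tags than the control. ASXL1 and O-GlcNAc were recovered from chromatin preparation 63 with antibodies from Santa Cruz Biotechnology and Novus Biologicals (labelled Anti-GlcNAc), and FOXK1 from preparation 62 with an antibody from Abcam. Each was called against the input of its own preparation, so FOXK1 and its preparation cannot be told apart when FOXK1 is set beside the other lists. The medium held 4.5 g/l glucose, 10% fetal calf serum and 2 mM glutamine, a nutrient-rich medium, and the labels name no starvation.

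Autophagy encloses cytoplasm in a double membrane and delivers it to the lysosome. ULK kinases start the process when nutrient signalling falls, a BECN1-containing lipid kinase complex marks the forming membrane, and ubiquitin-like proteins of the ATG8 family are attached to its lipids by an enzyme cascade that includes ATG7, ATG5 and ATG12. FOXK1 is a forkhead transcription factor that has been described, in other cells, as a repressor of autophagy genes under nutrient-rich conditions. ASXL1 works with BAP1, an enzyme that removes ubiquitin from histone H2A, and O-GlcNAc is a nutrient-dependent sugar on serine and threonine residues of nuclear proteins. The lists allow the question of where the 3 targets were found at the starts of these genes in cells grown in rich medium.

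FOXK1 peaks lay within 5 kb of 7 of the 10 gene starts, those of ULK1, SQSTM1, MAP1LC3B, GABARAPL1, GABARAPL2, ATG5 and ATG7, and MAP1LC3B had a pair of them. ULK2, BECN1 and ATG12 had no FOXK1 peak in this window. ASXL1 peaks lay within 5 kb of all 10 starts, and O-GlcNAc peaks within 5 kb of 8, the exceptions being ULK1 and ULK2. For comparison, positions spaced every 10 kb on chromosomes 1 to 22 and X had a FOXK1 peak within 5 kb in 6.38% of 303465 cases, an ASXL1 peak in 20.0% and an O-GlcNAc peak in 20.8%. Such positions were not chosen for genes, and the same share over all gene starts was not computed because no hg19 annotation was used here. The counts of the 10 genes were therefore not set against other gene starts, and they do not show that autophagy genes differ from genes at large. All values rest on 1 library per antibody, so no difference has a replicate error, no test was made, and the depth behind each peak is unknown.

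**Figure D1:**
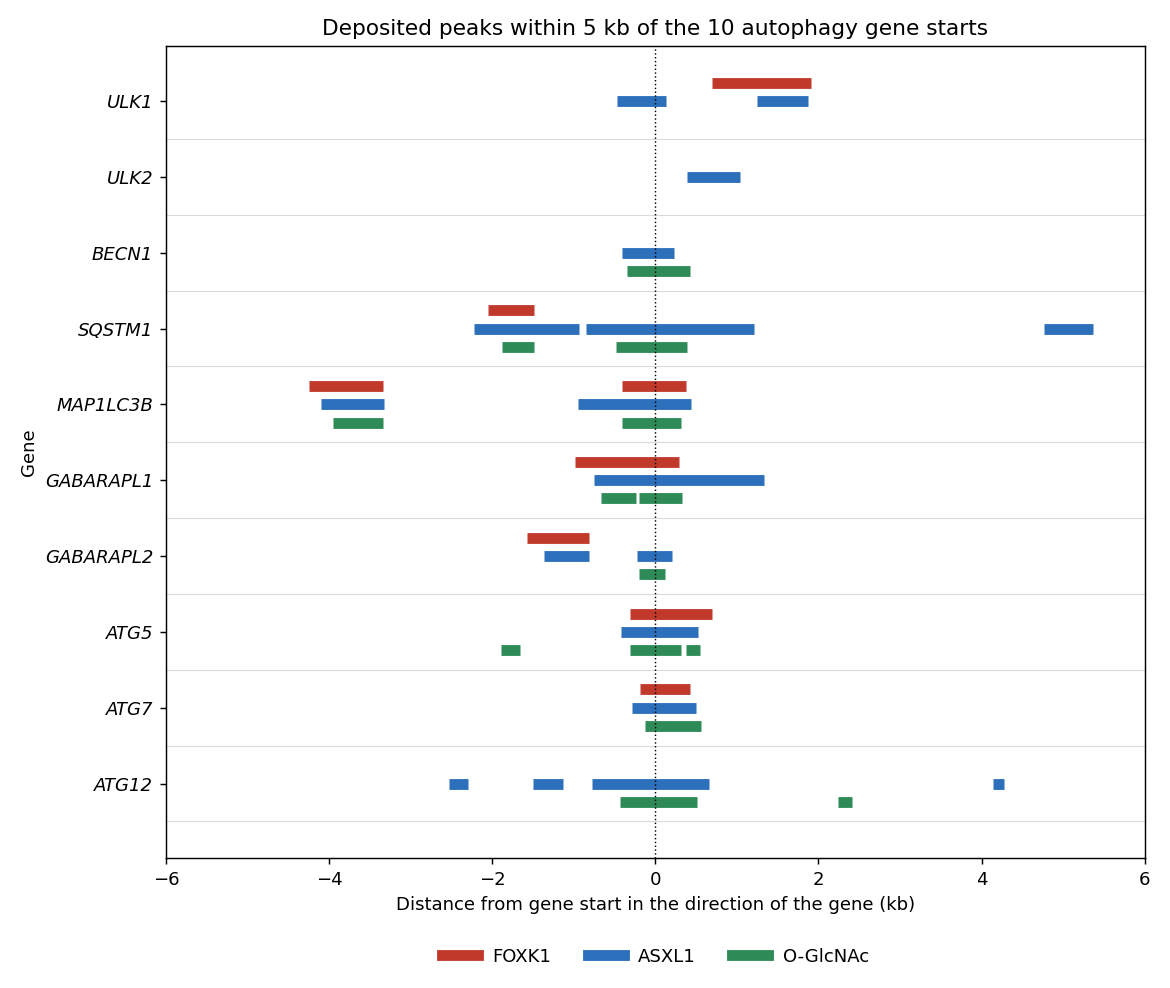
Deposited peaks within 5 kb of the 10 gene starts, drawn to scale. The x axis is the distance from the gene start in kb, with negative values upstream in the direction of the gene, each row is a gene, and each bar is a peak of FOXK1 (red), ASXL1 (blue) or O-GlcNAc (green). The starts of MAP1LC3B, GABARAPL1, ATG5 and ATG7 lie under peaks of all 3 lists, and the FOXK1 peaks of SQSTM1 and GABARAPL2 lie upstream of the start.

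The start itself lay inside a peak of all 3 lists at 4 genes, MAP1LC3B, GABARAPL1, ATG5 and ATG7. At BECN1, SQSTM1, GABARAPL2 and ATG12 it lay inside an ASXL1 and an O-GlcNAc peak but no FOXK1 peak, at ULK1 inside an ASXL1 peak alone, and at ULK2 inside none. ASXL1 peaks thus covered 9 starts, O-GlcNAc peaks 8 and FOXK1 peaks 4. Of the positions spaced every 10 kb, 1.35% lay inside an ASXL1 peak, 0.847% inside an O-GlcNAc peak and 0.389% inside a FOXK1 peak. The share inside peaks of all 3 lists at once was not computed, so the 4 genes have no such comparison.

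Sequences before the gene starts are shown for 3 genes whose start lay under all 3 lists and for 2 whose start lay under ASXL1 and O-GlcNAc peaks without FOXK1. They are the 200 bases upstream of the RefSeq start in GRCh38.p14, read in the direction of the gene from 5′ to 3′, with capitals at matches to the motifs described next. RefSeq starts were not aligned to the hg19 starts that the peaks were assigned to.
MAP1LC3B, chr16:87392136-87392335, plus strand: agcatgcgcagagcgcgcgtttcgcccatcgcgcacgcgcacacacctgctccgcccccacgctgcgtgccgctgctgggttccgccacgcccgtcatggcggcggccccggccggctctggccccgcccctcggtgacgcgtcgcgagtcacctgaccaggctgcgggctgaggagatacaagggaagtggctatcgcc
GABARAPL1, chr12:10212677-10212876, plus strand: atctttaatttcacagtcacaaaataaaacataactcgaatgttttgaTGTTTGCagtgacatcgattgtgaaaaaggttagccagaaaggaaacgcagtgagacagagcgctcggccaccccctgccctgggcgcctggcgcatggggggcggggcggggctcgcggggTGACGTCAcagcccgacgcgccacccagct
ATG7, chr3:11272197-11272396, plus strand: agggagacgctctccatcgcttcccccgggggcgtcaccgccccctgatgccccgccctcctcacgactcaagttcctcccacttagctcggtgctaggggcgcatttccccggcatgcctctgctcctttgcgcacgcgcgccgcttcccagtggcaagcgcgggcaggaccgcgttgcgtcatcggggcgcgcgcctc
GABARAPL2, chr16:75566179-75566378, plus strand: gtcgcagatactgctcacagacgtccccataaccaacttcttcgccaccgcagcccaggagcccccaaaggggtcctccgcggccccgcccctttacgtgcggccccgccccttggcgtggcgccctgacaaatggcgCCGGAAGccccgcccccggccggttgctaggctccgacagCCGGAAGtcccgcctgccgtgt
ATG12, chr5:115841566-115841765, minus strand: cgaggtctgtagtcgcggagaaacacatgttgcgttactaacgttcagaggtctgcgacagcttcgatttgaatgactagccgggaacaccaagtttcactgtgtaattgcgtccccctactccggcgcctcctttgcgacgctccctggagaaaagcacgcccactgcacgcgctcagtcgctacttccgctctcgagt

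The motifs were searched on either strand in the 250 upstream bases of all 35116 RefSeq promoters, among them 13 of the 10 genes, because SQSTM1 has 3 RefSeq starts and ATG5 has 2. The forkhead motif TGTTTAC was in 0 of the 13 windows, against 2.98% of all promoters. Its relaxed form TGTTTNC, which includes the former, was in 3 windows, 1 each of SQSTM1, GABARAPL1 and ATG5, and in 15.5% of all promoters. Which of the RefSeq starts of SQSTM1 and ATG5 corresponds to the hg19 start was not determined. In GABARAPL1 this match begins 152 bases before the start, and a cyclic AMP response element, TGACGTCA, begins 30 bases before it. That element was in no other window of the 10 genes and in 1.65% of all promoters. The ETS motif CCGGAAG was found in BECN1, in GABARAPL2 with matches that begin 62 and 22 bases before the start, and in 1 window of ATG5, against 8.52% of all promoters. CCAAT was found in BECN1 and in 1 window of ATG5, against 32.0%. The E-box CACGTG, its longer form TCACGTGA, which contains it, and the AP-1 motif TGACTCA were in none of the 13 windows, against 6.34%, 0.854% and 4.2% of all promoters. No motif of this set matched in ULK1, ULK2, MAP1LC3B, ATG7 or ATG12, and each window is shorter than every FOXK1 peak at the 10 genes. The window of BECN1 lies inside the RefSeq span of the gene, which begins farther upstream.

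ULK1 and ULK2 encode the kinases that start autophagosome formation. At ULK1, which starts at chromosome 12, position 132379279 (hg19), the FOXK1 peak began 696 bp downstream of the start and ended 1904 bp downstream, at positions 132379975 to 132381183. Its score was 68.11, rank 12801 of 21697 FOXK1 peaks, below the list's median score of 76.3, where the score is the peak caller's own and is compared only within a list. It is the lowest score among the FOXK1 peaks of the 10 genes. An ASXL1 peak of 616 bp with a score of 150.42 lay wholly inside it. The highest ASXL1 score near the ULK1 start belonged to another peak, which covered the start itself and scored 290.53 (rank 12828 of 94237). The nearest O-GlcNAc peak to ULK1 lay 34183 bp away. No other FOXK1 peak was listed within 50 kb of ULK1, and the next one was 249193 bp away. In RefSeq a long non-coding RNA gene on the other strand, LOC124903059, has a start within 1 kb of that of ULK1.

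ULK2 had the fewest peaks of the 10 genes within 5 kb of its start. From its start at chromosome 17, position 19771239, 1 ASXL1 peak lay 394 to 1037 bp downstream with a score of 436.67 (rank 9499). The nearest FOXK1 peak was 48095 bp away with a score of 54.09, near the list's lowest score of 50, and the nearest O-GlcNAc peak was 19971 bp away with a score of 60.03. The ULK genes were the 2 without an O-GlcNAc peak in the window, and they differed in FOXK1 by a low-scoring peak at ULK1.

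BECN1 encodes a scaffold of the class III phosphatidylinositol 3-kinase complex. Its start at chromosome 17, position 40976310, lay inside an ASXL1 peak with a score of 740.14 (rank 5747) and an O-GlcNAc peak with a score of 224.39 (rank 6535 of 78825). No FOXK1 peak lay within 50 kb, and the nearest was 67054 bp away with a score of 50.42. BECN1 was the only gene of the 10 without a FOXK1 peak in that wider window. A stronger O-GlcNAc peak, with a score of 1030.97, lay 8403 bp from the start, outside the window, and an ASXL1 peak with a score of 1546.02 lay at the same place.

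MAP1LC3B, the ATG8-family protein known as LC3B and the usual marker of autophagosomes, had 2 places held by all 3 lists. At its start, chromosome 16, position 87425801, the FOXK1 peak spanned positions 87425392 to 87426181, from 409 bp upstream to 380 bp downstream, with a score of 101.77 (rank 7161). The ASXL1 peak there scored 552.8 (rank 7777) and the O-GlcNAc peak 1233.81 (rank 843). The other place lay 3338 bp upstream, at positions 87421560 to 87422463, where the FOXK1 score was 334.9 (rank 1014). The O-GlcNAc peak at that upstream place scored 2109.25, rank 240 of its list and the highest O-GlcNAc rank at any of the 10 genes. ASXL1 had the opposite order, with 218.03 (rank 15732) at the upstream place. FOXK1 and O-GlcNAc were thus scored higher upstream of MAP1LC3B and ASXL1 higher at its start. In RefSeq a start of FBXO31, on the other strand, lies within 1 kb of the MAP1LC3B start.

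GABARAPL1 and GABARAPL2 encode the other ATG8-family members of the list. The start of GABARAPL1 at chromosome 12, position 10365489, lay inside a FOXK1 peak of 1276 bp, the widest of the 8, at positions 10364506 to 10365781 with a score of 127.55 (rank 5138). The ASXL1 peak over the start scored 1701.44 (rank 1522), the highest ASXL1 score at the 10 genes. O-GlcNAc was listed there as 2 peaks, of which the one 238 bp upstream scored 443.05 (rank 3428) and the one over the start 242.33 (rank 6086). These were the only ASXL1 and O-GlcNAc peaks within 50 kb except for 1 more ASXL1 peak, so GABARAPL1 lay in a stretch with few other peaks of these lists.

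At GABARAPL2 the lists divided between 2 places. Over the start, chromosome 16, position 75600249, an ASXL1 peak scored 331.08 (rank 11719) and an O-GlcNAc peak 139.11 (rank 10491), with no FOXK1 peak. The FOXK1 peak lay 812 bp upstream at positions 75598678 to 75599437 with a score of 139.43 (rank 4529). It contained an ASXL1 peak of 548 bp with a score of 108.28 (rank 28245) and overlapped no O-GlcNAc peak. FOXK1 was listed with the lower of the ASXL1 peaks, and the higher one coincided with O-GlcNAc.

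ATG5, ATG7 and ATG12 belong to the conjugation cascade, in which ATG7 is the activating enzyme, ATG12 the ubiquitin-like protein and ATG5 its partner. At ATG7, chromosome 3, position 11314010, each list had 1 peak in the window and all covered the start. The FOXK1 peak at positions 11313819 to 11314436 scored 146.36 (rank 4227), the ASXL1 peak 756.29 (rank 5624) and the O-GlcNAc peak 515.84 (rank 2923). The centres of the FOXK1 and ASXL1 peaks lay 10 bp apart, the closest pair at these genes. No other FOXK1 or O-GlcNAc peak was listed nearer than 35303 and 27858 bp.

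The start of ATG5 at chromosome 6, position 106773695, also lay under all 3 lists. ASXL1 scored 1261.84 (rank 2737) and O-GlcNAc 649.26 (rank 2215), each exceeded within 5 kb of the start at only 1 of the other genes, GABARAPL1 and MAP1LC3B respectively. The FOXK1 peak, at positions 106772995 to 106774002, scored only 72.54 (rank 11662), below the list's median. Further FOXK1 peaks lay 7289 and 19313 bp from the ATG5 start, with scores of 76.63 and 66.27, and 4 lay within 50 kb, the most at any of the 10 genes. The peak at 7289 bp was the nearest FOXK1 peak outside the window at any of the genes, and the farthest inside it was the one 3338 bp from MAP1LC3B.

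ATG12, at chromosome 5, position 115177555, had an ASXL1 peak over its start with a score of 980.23 (rank 4007) and an O-GlcNAc peak with a score of 406.59 (rank 3717). Its ASXL1 rank was better than that of ATG7, which had FOXK1 at its start. The nearest FOXK1 peaks to ATG12 lay 15738 and 16137 bp upstream of the start with scores of 93.67 and 229.77. AP3S1, an adaptor complex gene on the other strand, has a RefSeq start within 1 kb of that of ATG12, so peaks over the ATG12 start lie close to both genes.

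SQSTM1 encodes p62, which binds ubiquitinated cargo and ATG8-family proteins. It had the highest FOXK1 score of the 10 genes, 340.92 (rank 977), but this peak lay 1484 bp upstream of the start used here, at chromosome 5, positions 179245789 to 179246358, against a start at 179247842. At that upstream place ASXL1 scored 395.84 (rank 10243) and O-GlcNAc 200.68 (rank 7235). Over the start ASXL1 scored 587.41 (rank 7327), O-GlcNAc only 63.14 (rank 46111), and FOXK1 had no peak. As at MAP1LC3B, O-GlcNAc scored higher upstream than over the start and ASXL1 the reverse, and the highest-scoring FOXK1 peak lay upstream. SQSTM1 also had 38 ASXL1 peaks within 50 kb, the most of the 10 genes, where the mean over chromosomes 1 to 22 and X was 3.10 per 100 kb. O-GlcNAc and FOXK1 had 4 and 1 peaks in the same span. RefSeq lists 3 starts of SQSTM1, with a start of MGAT4B, on the other strand, within 1 kb of at least 1 of them. Peaks were assigned to the hg19 start alone.

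The best peak of each gene was then ranked within its own list. The lists hold 21697, 94237 and 78825 peaks for FOXK1, ASXL1 and O-GlcNAc, so a percentage rank depends on list length and is read only between genes of a list. At ULK1, for example, rank 12801 of FOXK1 and rank 12828 of ASXL1 are 59.0% and 13.6% from the top. Among the 10000 highest-scoring peaks of each list, 5 genes had a FOXK1 peak in the window, 8 an ASXL1 peak and 7 an O-GlcNAc peak, against 3.12%, 3.22% and 3.26% of the positions spaced every 10 kb. Among peaks with a score of at least 100 the counts were 5, 10 and 8 genes in the same order, against 2.34%, 7.75% and 5.17% of positions. The best ASXL1 peaks of all 10 genes and the best O-GlcNAc peaks of 8 were among the highest-scoring 25% of their lists. Of each, 7 were among the highest-scoring 10%. These are the highest for each gene among 18 ASXL1 and 14 O-GlcNAc peaks in the windows. The same shares for best peaks at other places were not computed. For FOXK1, the peaks of SQSTM1 and MAP1LC3B were among the highest 10%, at 4.50% and 4.67% from the top. ATG7, GABARAPL2 and GABARAPL1 followed at 19.5%, 20.9% and 23.7%. ATG5 and ULK1 came last at 53.7% and 59.0%, in the lower-scoring part of the list. The order of the genes differed between lists, with GABARAPL1 first for ASXL1, MAP1LC3B for O-GlcNAc and SQSTM1 for FOXK1.

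**Figure D2:**
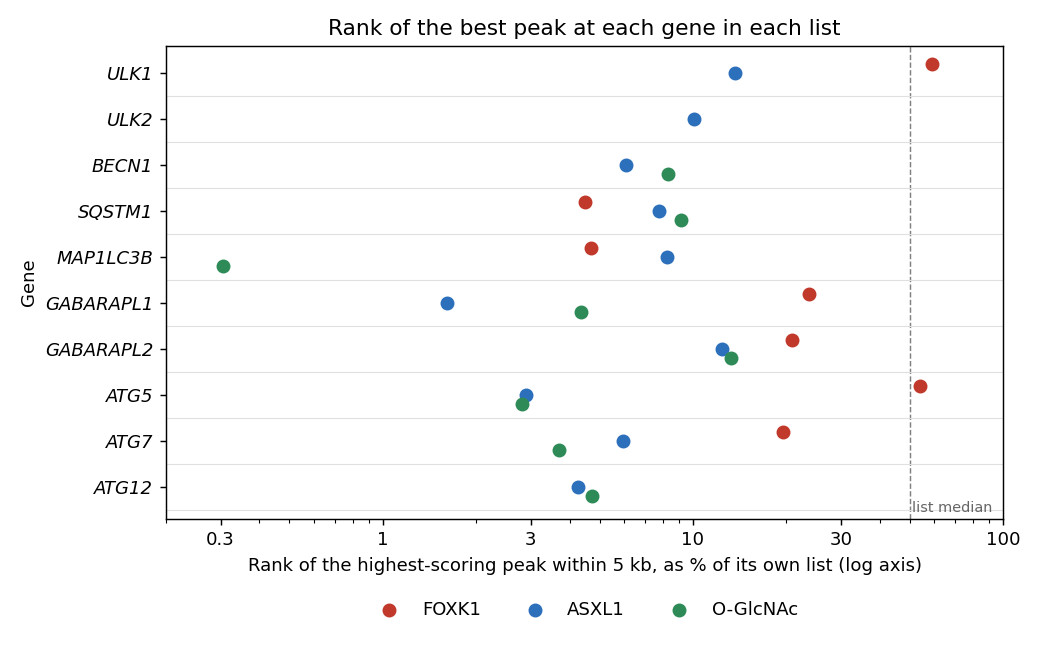
Rank of the highest-scoring peak within 5 kb of each gene start. The x axis is the rank as a percentage of the peak's own list on a log scale, with the strongest peaks at the left, and the dashed line marks the list median. Colours are not on a common scale, because the lists differ in length. The FOXK1 points (red) run from 4.50% at SQSTM1 to 59.0% at ULK1, and ASXL1 is blue and O-GlcNAc green.

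With all deposited peaks, the 8 FOXK1 peaks at these genes each overlapped an ASXL1 peak, and 6 also overlapped an O-GlcNAc peak, the exceptions being those of ULK1 and GABARAPL2. Of all 21697 FOXK1 peaks, 42.3% overlapped an ASXL1 peak, 37.8% an O-GlcNAc peak and 28.8% both. When each list was limited to its top 10000 peaks by score, 6 of the 8 FOXK1 peaks were left. Of these, 3 overlapped an ASXL1 peak, those over the starts of MAP1LC3B, GABARAPL1 and ATG7, and 5 an O-GlcNAc peak, against 22.4% and 27.0% of all 10000 FOXK1 peaks at that setting. The overlap with ASXL1 covered at least 82.1% of the shorter peak in each case. Centres of overlapping FOXK1 and ASXL1 peaks were 10 to 638 bp apart with a median of 170 bp, against a median of 83 bp for all FOXK1 peaks that overlapped ASXL1. For O-GlcNAc the median was 120.5 bp at these genes and 75 bp for the whole list. The 8 FOXK1 peaks were 570 to 1276 bp wide with a median of 847 bp, against 437 bp for the whole list, and the part of peak width in the overlaps was not tested.

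Changing the distance within which a peak was assigned altered the FOXK1 count more than the others. FOXK1 had a peak at 4 genes up to 500 bp from the start, at 6 up to 1 kb, at 7 from 2 kb to 15 kb, and at 8 at 20 kb, when ATG12 was added. ASXL1 reached 10 genes at 500 bp, where ULK2 was added, and O-GlcNAc stayed at 8 genes until 20 kb, where ULK2 was added as well. Over the same range, from 0 to 25 kb, the share of positions every 10 kb with a peak went from 0.389% to 23.4% for FOXK1, from 1.35% to 52.3% for ASXL1 and from 0.847% to 59.1% for O-GlcNAc. At 20 kb, where ATG12 and ULK2 were added, it was 19.8% for FOXK1 and 53.0% for O-GlcNAc. ASXL1 and O-GlcNAc thus reached nearly all of their genes at the start itself, while the nearest FOXK1 peaks of ULK1, GABARAPL2 and SQSTM1 lay 696, 812 and 1484 bp from it.

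**Figure D3:**
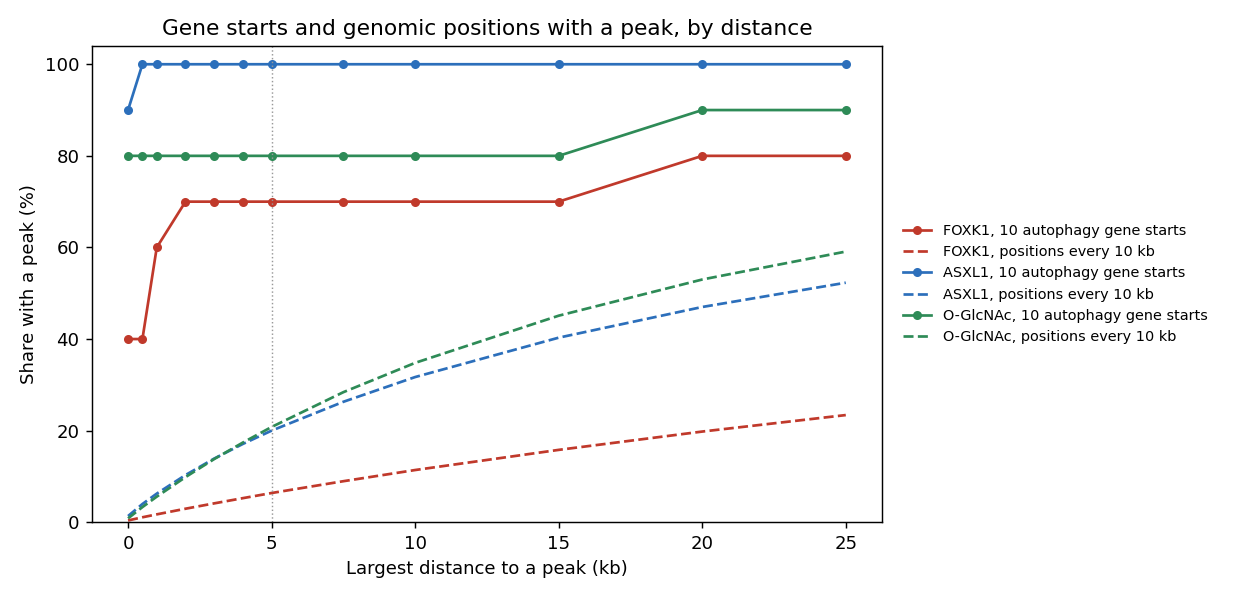
Share of the 10 gene starts (solid lines with points) and of 303465 positions spaced every 10 kb (dashed lines) with a peak within the distance on the x axis, in kb, for each list. The dotted line marks 5 kb, where FOXK1 reached 7 of 10 genes against 6.38% of positions.

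Because each of the 10 starts had an ASXL1 peak in the window and 8 an O-GlcNAc peak, places held by those lists were taken as another comparison. How many of them lie at gene starts was not computed. Of the highest-scoring 10% of ASXL1 peaks, 39.6% had a FOXK1 peak within 5 kb of their centre (95% exact binomial interval 38.6 to 40.6, counting error only). The same share over all ASXL1 peaks was 22.6%. For O-GlcNAc peaks it was 46.0% (interval 44.9 to 47.1) in the highest-scoring 10% and 22.6% over all. Of the 7 genes whose best ASXL1 peak was in the highest 10%, 5 had a FOXK1 peak within 5 kb of the gene start. The exceptions were BECN1 and ATG12. For the genes the distance thus ran from the gene start, and for the shares from the peak centre. The 7 genes in the highest 10% of O-GlcNAc were the same ones, also with 5 that had FOXK1. The shares at high-scoring ASXL1 and O-GlcNAc peaks, 39.6% and 46.0%, were thus above the 6.38% of evenly spaced positions, and no difference of the 7 genes from them was tested.

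**Figure D4:**
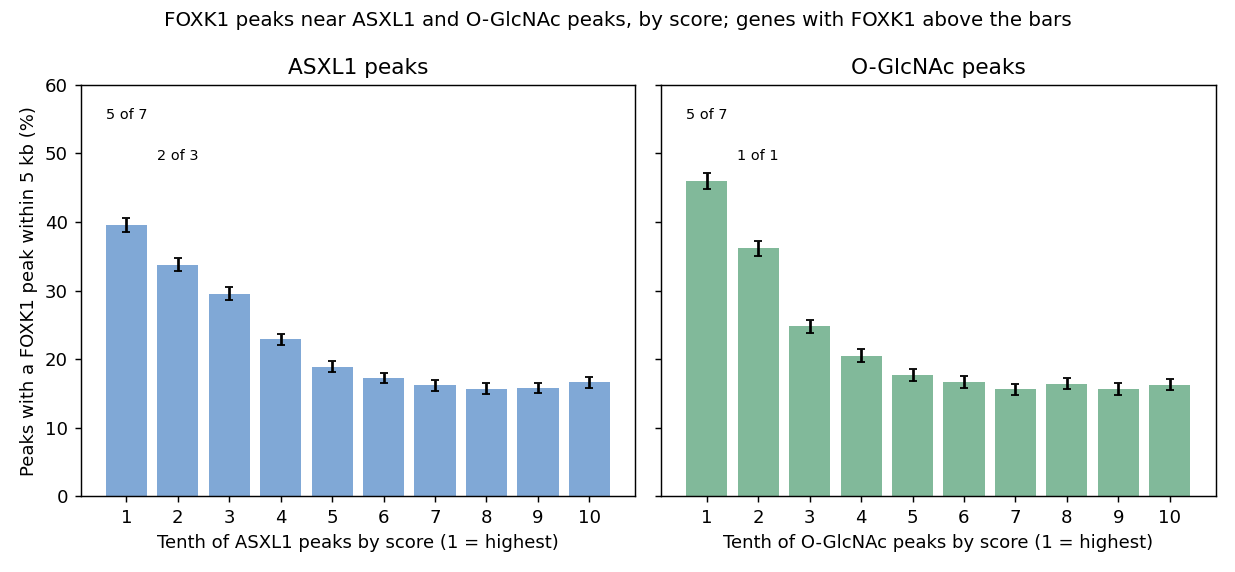
Share of ASXL1 peaks (left) and O-GlcNAc peaks (right) with a FOXK1 peak within 5 kb of their centre, in 10 classes of score from the highest (1) to the lowest (10). Error bars are 95% exact binomial intervals. The text above the bars gives the autophagy genes with a FOXK1 peak within 5 kb of the gene start, among those whose best peak is in that class. It is 5 of 7 in the highest class of each list.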

How the data were processed

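Peak lists of 3 ChIP-seq libraries, 1 per antibody and not pooled, were used. Peaks were called with MACS 1.4 and reads aligned with Bowtie2 2.0.0 to hg19, as far as the submitters' processing notes name tools and build. Settings, read filters and depth are not given in the sources used here. Each peak carries a score that the authors deposited, at least 50 and on a scale no source used here states, and scores were used only within a list. The 2 input libraries were not analysed here.

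Gene starts were hg19 positions fixed with the gene list, and strands came from RefSeq (GRCh38.p14). Distances ran from the nearest base of a peak, coordinates count from 1, and overlap meant at least 1 bp. Every FOXK1 peak within 5 kb was named, and the highest-scoring ASXL1 and O-GlcNAc peak of each gene, with others where a FOXK1 peak overlapped them or where they were singled out after their values were seen. Other autophagy genes were not analysed here. The genes, lists and motifs were chosen with earlier results of these data known. Libraries were amplified by PCR, so intervals cover counting error only. They also treat peaks as independent, although neighbouring peaks can share a FOXK1 peak, so they may be too narrow. Python 3.11.15, pandas 2.3.3 and scipy 1.17.1 were used, and the distance functions were tested on simulated data.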

Additional observations from a re-analysis of the deposited data

How the results depend on the processing

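No paired analysis was possible because there was 1 library per antibody, and no replicate could be left out. Counting only gene starts inside a peak lowered the FOXK1 count from 7 to 4 genes, as a narrower rule must. Keeping the 10000 highest-scoring peaks of each list lowered the FOXK1 peaks that overlapped an ASXL1 peak from 8 to 3. The peaks of ULK1 and ATG5 fell below rank 10000 of the FOXK1 list, and at SQSTM1, GABARAPL2 and the upstream place of MAP1LC3B the overlapping ASXL1 peaks fell below that rank of theirs. A score of at least 100 or the 10000 highest-scoring peaks left 5 genes with FOXK1, without ULK1 and ATG5, against 2.34% and 3.12% of positions spaced every 10 kb. The latter setting also left 8 genes with ASXL1 and 7 with O-GlcNAc, against 3.22% and 3.26% of positions. The other counts stayed within 1.5 times their value under windows of 1, 2, 10 and 25 kb (the last added after the data were seen). They also did so with removal of the widest 1% of peaks, distances from peak centres and stricter overlap. The background shares stayed within 1.5 times on the chromosomes of the 10 genes alone, but not under these windows. For FOXK1 the share was 1.72% at 1 kb and 23.4% at 25 kb, against 6.38% at 5 kb. Background from hg19 gene starts was not run. Depth is unknown, so a gene without a listed peak is not shown to lack the target.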

Other observations

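Around the 10 genes the number of peaks within 50 kb of the start varied most for ASXL1, from 2 at GABARAPL1 and ATG7 to 38 at SQSTM1, with 23 at BECN1 and 20 at ULK1. O-GlcNAc ran from 2 at ULK1, ULK2 and GABARAPL1 to 12 at ATG5, and FOXK1 from 0 at BECN1 to 4 at ATG5. The genomic means were 3.10, 2.59 and 0.708 peaks per 100 kb in that order. At ATG5 the extra O-GlcNAc peaks inside the 5 kb window scored 55.27 and 50.72, close to the lowest listed score of 50.

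The strongest places near these genes were in part outside the window. An ASXL1 peak with a score of 1368.05 lay 7365 bp from the MAP1LC3B start, above the 552.8 of the peak over the start. Other genes at such places outside the window were not looked up. The ASXL1 peak 4764 bp from the SQSTM1 start, with a score of 80.84, was the farthest peak inside the window, and the O-GlcNAc peak 5997 bp from the ATG5 start, with a score of 68.43, was the nearest outside it.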
